A study of Mus musculus with 4 samples.

Results

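A set of 9 genes of the mature adipocyte program was followed through 4 single-cell RNA sequencing libraries of cultured adipose cells: *Adipoq*, *Cfd*, *Car3*, *Retn*, *Lep*, *Cidec*, *Lipe*, *Pnpla2* and *Mrap*. They were taken by symbol from the 32285 genes in the files, and all 9 were found. They were chosen by values of these same libraries: their levels in cells and in free RNA, and how much of their RNA lay in few cells. Their levels are therefore a description, without a test. Cells were taken as droplet barcodes with 5000 to 75000 UMIs (unique molecular identifiers, which tag single RNA molecules at capture), 200 to 7500 genes and under 10% of UMIs from mitochondrial (mt-) genes. Barcodes with 1 to 100 UMIs, which hold RNA free in the cell suspension, were measured beside them and are called free RNA below.

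The study compared de-differentiated fat (DFAT) cells with cultured cells of the stromal vascular fraction (SVF). DFAT cells of the iWAT_DFAT and eWAT_DFAT libraries came from floating adipocytes of the inguinal (iWAT) and epididymal (eWAT) white depot, which lose their lipid and turn spindle-shaped in ceiling culture. The iWAT_SVF and eWAT_SVF libraries held primary cultures of the SVF of the same depots, in which adipose stem and progenitor cells (ASPCs) are the main cell type. All came from chow-fed male C57BL/6J mice, and the labels name no transgene or drug treatment for them. Their age was not given in the sources used here. Each group was 1 library, so differences between cultures were not measured and no test was made. The cultures were detached with trypsin and sorted with 7-AAD, a dye that enters dead cells, before the droplets were formed.

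The 4 libraries gave between 6464 and 7629 cells with 183664704 to 199357348 UMIs in them, and median depths from 22111 to 27617 UMIs per cell. Free RNA held between 7097865 and 7408127 UMIs per library. Levels are UMIs per 1000000 UMIs (CPM), summed over the barcodes of a class, and ranges in brackets are exact 95% Poisson intervals. For a gene at 0 the upper limit was 0.0150 to 0.0163 CPM in cells and 0.405 to 0.423 CPM in free RNA, from 3 counts. All intervals and limits cover counting error only. Between 9 and 10 of the 11 ASPC genes stood at 5 CPM or more in every library, with a summed level between 2417 CPM in eWAT_DFAT and 7962 CPM in iWAT_DFAT. Summed endothelial genes ranged from 23.4 to 97.8 CPM, macrophage genes from 18.7 to 68.0 CPM, mesothelial genes from 6.61 to 190.5 CPM, genes of pericytes and smooth muscle from 11.2 to 282 CPM, glial genes from 1.81 to 34.2 CPM and brown adipocyte genes from 2.30 to 6.53 CPM. Pairs of libraries shared between 13 and 20 cell barcodes, at most 0.297% of a library.

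White adipocytes store triglyceride in 1 large droplet and release fatty acids from it on demand, and they also secrete proteins that act on other tissues. Both functions are switched on late in adipogenesis under PPARγ and C/EBPα, and progenitors largely lack them. During de-differentiation the droplet is lost and the adipocyte genes are turned down. The secreted products followed here are adiponectin (*Adipoq*), which raises insulin sensitivity, adipsin or complement factor D (*Cfd*), resistin (*Retn*) and leptin (*Lep*), which reports fat stores to the brain. *Cidec* encodes a droplet protein that fuses small droplets into large ones. *Pnpla2* encodes adipose triglyceride lipase, the first enzyme of lipolysis, and *Lipe* hormone-sensitive lipase, the next. *Car3* encodes a cytosolic carbonic anhydrase that is very abundant in adipocytes, and *Mrap* the accessory protein that carries the ACTH receptor to the cell surface.

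The region just before the start site is shown for 4 of the 9 genes, chosen as *Adipoq* and *Cfd*, whose UMIs lay in few cells, *Lep*, which had no UMI in any cell, and *Pnpla2*, which was spread over many. Of the 9 genes, 7 had a promoter entry in the RefSeq table for GRCm38.p6, and *Car3* and *Mrap* had none. The 250 bases before the RefSeq start are given 5′ to 3′ on the strand of the gene, here the plus strand for all 4. Capitals mark letters of any of 5 motifs searched on both strands, which were the C/EBP palindrome TTGCGCAA, the CCAAT box, which reads ATTGG on the other strand, the TATA core TATAA, which reads TTATA on the other strand, the E-box CACGTG, and a direct repeat of the hexamer AGGTCA with 1 base between the copies, of the kind that PPARγ with RXR can bind.
Adipoq, chr16:23146286-23146535: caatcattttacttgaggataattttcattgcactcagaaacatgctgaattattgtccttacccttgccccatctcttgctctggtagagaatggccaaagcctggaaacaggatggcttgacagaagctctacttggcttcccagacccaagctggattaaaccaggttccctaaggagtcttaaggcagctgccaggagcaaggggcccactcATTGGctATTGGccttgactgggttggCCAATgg
Cfd, chr10:79890603-79890852: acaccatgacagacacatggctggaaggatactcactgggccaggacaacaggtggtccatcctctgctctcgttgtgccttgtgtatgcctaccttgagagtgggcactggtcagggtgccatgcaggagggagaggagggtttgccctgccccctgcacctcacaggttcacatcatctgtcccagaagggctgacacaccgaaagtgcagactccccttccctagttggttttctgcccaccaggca
Lep, chr6:29059971-29060220: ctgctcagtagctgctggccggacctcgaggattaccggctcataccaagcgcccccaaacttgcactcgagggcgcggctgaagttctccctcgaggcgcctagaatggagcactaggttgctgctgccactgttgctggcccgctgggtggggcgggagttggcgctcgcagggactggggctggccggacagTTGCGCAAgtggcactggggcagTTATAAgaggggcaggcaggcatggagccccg
Pnpla2, chr7:141454938-141455187: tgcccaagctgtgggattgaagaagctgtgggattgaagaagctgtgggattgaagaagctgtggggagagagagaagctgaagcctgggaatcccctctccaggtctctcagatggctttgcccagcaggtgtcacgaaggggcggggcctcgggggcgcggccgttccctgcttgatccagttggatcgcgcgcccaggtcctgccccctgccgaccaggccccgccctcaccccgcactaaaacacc
The *Adipoq* window held 3 CCAAT boxes, and 33.8% of all 32851 promoter windows of that length held at least 1. In the *Lep* window a TTGCGCAA palindrome began 55 bases before the start, a match that 0.164% of all windows had. The same window held the TATA core on both strands, the matches overlapping in 4 letters, and 22.8% of windows had the core on at least 1 strand. None of the 5 motifs was found in the *Cfd* and *Pnpla2* windows. Of the 3 windows not shown, *Lipe* had 1 CACGTG, as 6.02% of windows did, and *Retn* and *Cidec* had no match. The direct repeat was in 0.0335% of windows and in none of the 7. These matches describe letters only, and no binding was measured.

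*Adipoq* (ENSMUSG00000022878, 11493 bases on the plus strand, chr16:23146536-23158028 of GRCm38 in the GENCODE M21 annotation) stood at 1.23 CPM in iWAT_DFAT (1.07 to 1.40, 225 UMIs), 11.3 CPM in eWAT_DFAT (10.9 to 11.8, 2104 UMIs), 0.100 CPM in iWAT_SVF (0.0613 to 0.155, 20 UMIs) and 0.157 CPM in eWAT_SVF (0.107 to 0.223, 31 UMIs). Both DFAT libraries were above both SVF libraries, and the intervals of the SVF libraries overlapped each other. With each cell weighing the same, the eWAT_DFAT level was 19.8 CPM. In eWAT the DFAT level was 72.2-fold the SVF level, a log2 ratio of 6.17 (5.66 to 6.74), and in iWAT 12.2-fold, a log2 ratio of 3.61 (2.95 to 4.35). Of the 31 UMIs of eWAT_SVF, 27 lay in 1 cell, and the intervals do not cover such uneven spread over cells.

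*Cfd* (ENSMUSG00000061780, chr10:79890853-79892655, plus strand) had 3.30 CPM in iWAT_DFAT (3.04 to 3.57), 21.1 CPM in eWAT_DFAT (20.4 to 21.8), 0.010 CPM in iWAT_SVF, from 2 UMIs, and 0.228 CPM in eWAT_SVF, from 45 UMIs. Of these 45 UMIs, 43 lay in 1 cell. In all, 2 cells of iWAT_SVF and 3 of eWAT_SVF held it, beside 41 of iWAT_DFAT and 155 of eWAT_DFAT. With each cell weighing the same, *Cfd* in eWAT_DFAT was at 39.5 CPM. The log2 ratio of DFAT over SVF was 8.36 (6.50 to 11.41) in iWAT and 6.53 (6.11 to 6.99) in eWAT.

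*Retn* (ENSMUSG00000012705, chr8:3655770-3660110, plus strand) had 3.22 CPM (2.97 to 3.49) in iWAT_DFAT, 9.34 CPM (8.90 to 9.79) in eWAT_DFAT, 0.135 CPM (0.0893 to 0.197) in iWAT_SVF and 0.440 CPM (0.353 to 0.543) in eWAT_SVF. No intervals overlapped, and the order was the same as that of *Cfd*. Its DFAT over SVF ratio was 23.8-fold in iWAT and 21.2-fold in eWAT.

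*Lep* (ENSMUSG00000059201, chr6:29060220-29073877, plus strand) had no UMI in any cell of the 4 libraries. For the 7629 cells of iWAT_DFAT this allows a share of up to 0.0393% of cells with a UMI, and for the 6464 cells of eWAT_DFAT up to 0.0464%. Outside the cells, 1 UMI was counted in iWAT_DFAT, in a barcode with over 7500 genes, and 2 in eWAT_DFAT, in barcodes of over 500 and under 5000 UMIs. The SVF libraries had none in any barcode. The leptin gene was thus not detected in cells, also in those in which the other adipocyte genes were counted, as given below.

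Of the genes of the lipid droplet, *Cidec* (ENSMUSG00000030278, chr6:113424634-113435760, minus strand) followed the pattern of *Adipoq*. Its levels were 0.599 CPM (0.492 to 0.722) in iWAT_DFAT, 6.77 CPM (6.40 to 7.16) in eWAT_DFAT, 0.0201 CPM in iWAT_SVF, from 4 UMIs, and 0.0709 CPM in eWAT_SVF, from 14 UMIs. The fold over SVF was 29.8 in iWAT and 95.6 in eWAT.

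The lipases were less divided between the cultures. *Lipe* (ENSMUSG00000003123, chr7:25379527-25398710, minus strand) had 6.08 CPM (5.72 to 6.44) in iWAT_DFAT, 8.72 CPM (8.30 to 9.16) in eWAT_DFAT, 1.82 CPM (1.63 to 2.01) in iWAT_SVF and 2.43 CPM (2.22 to 2.66) in eWAT_SVF. Its log2 ratio of DFAT over SVF was 1.74 (1.57 to 1.92) in iWAT and 1.84 (1.70 to 1.99) in eWAT. A gene on the opposite strand, *4732471J01Rik*, overlaps *Lipe* in the annotation, and whether the counting used strand was not given in the sources used here.

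*Pnpla2* (ENSMUSG00000025509, chr7:141455198-141460743, plus strand) was at 13.0 CPM (12.5 to 13.5) in iWAT_DFAT, 23.2 CPM (22.5 to 23.9) in eWAT_DFAT, 12 CPM (11.5 to 12.5) in iWAT_SVF and 16.2 CPM (15.6 to 16.8) in eWAT_SVF. Here the DFAT and SVF levels lay near each other. The log2 ratio was 0.11 (0.03 to 0.19) in iWAT, close to the median of 0.09 over the 10426 genes compared, and 0.52 (0.45 to 0.58) in eWAT. Without the 1% of cells with most UMIs of the 9 genes, these ratios were -0.19 and -0.03.

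*Car3* (ENSMUSG00000027559, chr3:14863512-14872523, plus strand) had 4.06 CPM (3.77 to 4.36) in iWAT_DFAT and 29.7 CPM (28.9 to 30.5) in eWAT_DFAT. In iWAT_SVF 6 UMIs gave 0.0301 CPM, and in eWAT_SVF 2 UMIs gave 0.0101 CPM. The log2 ratio in eWAT was 11.52 (9.67 to 14.57) and that in iWAT 7.07 (5.95 to 8.53).

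*Mrap* (ENSMUSG00000039956, chr16:90738207-90749785, plus strand) stood at 2.18 CPM (1.97 to 2.40) in iWAT_DFAT, 66.6 CPM (65.5 to 67.8) in eWAT_DFAT, 0.482 CPM (0.390 to 0.588) in iWAT_SVF and 17.4 CPM (16.8 to 18.0) in eWAT_SVF. Both eWAT libraries were above both iWAT libraries, as they were for *Pnpla2*. The eWAT level was 30.6-fold the iWAT level in DFAT cells and 36.1-fold in SVF cells, while DFAT over SVF was 4.52-fold in iWAT and 3.83-fold in eWAT. The ACTH receptor itself, *Mc2r*, had at most 17 UMIs in a library, 0.0916 CPM in eWAT_DFAT.

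**Figure D1:**
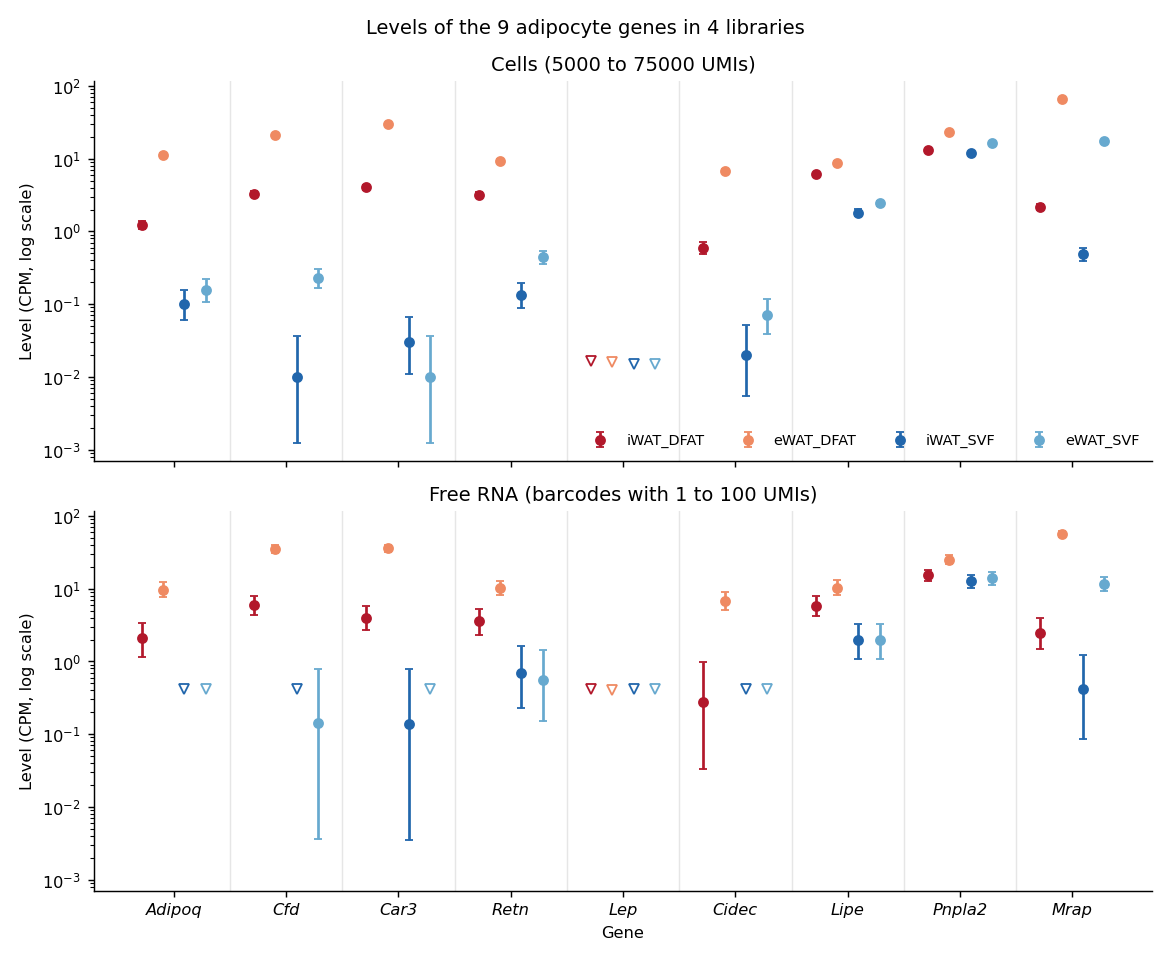
Levels of the 9 genes in cells (top) and in free RNA (bottom) of the 4 libraries, in CPM on a log axis, with exact 95% Poisson intervals for counting error. Open triangles are drawn at the limit of 3 counts where no UMI was found. In cells the eWAT_DFAT point is the highest for each of the 8 genes with a UMI. For *Mrap* it is at 66.6 CPM beside 17.4 CPM in eWAT_SVF. Where a gene reached 5 CPM in cells or free RNA, the point in free RNA lies within 2-fold of that in cells. Below that level some points lie further apart, as for *Retn* in iWAT_SVF, and the triangles are limits only.

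With UMIs summed over the 9 genes, the level was 33.6 CPM in iWAT_DFAT, 177 CPM in eWAT_DFAT, 14.6 CPM in iWAT_SVF and 36.9 CPM in eWAT_SVF. *Pnpla2* gave most of the sum in iWAT_SVF, and *Pnpla2* with *Mrap* most of that in eWAT_SVF. Such a sum cannot tell more cells with a gene from more RNA per cell, which the cell by cell counts below separate. Without the 1% of cells with most UMIs of the 9 genes, the sums were 16.5, 98.0, 13.3 and 34.2 CPM in the same order.

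Ratios between libraries were read against all genes, a gene being counted where it differed by 2-fold or more and reached 5 CPM in the higher library. In eWAT, 7 of the 8 genes at 5 CPM were 2-fold or more higher in DFAT cells, all except *Pnpla2*, where 6.44% of all genes compared were. None was 2-fold lower, beside 6.67% of all genes. Their median log2 ratio was 5.29, beside 0.07 over all genes. In iWAT only *Lipe* and *Pnpla2* reached 5 CPM and *Lipe* alone was 2-fold higher, with 9.91% of all genes 2-fold higher and 5.18% lower. *Car3*, the next in level at 4.06 CPM, fell short of the minimum, and without a minimum 7 genes were 2-fold higher. Genes that reach 5 CPM only through their high library had to differ, so these counts describe the choice of genes as well as the cultures.

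Between depots, 6 of the 8 genes at 5 CPM were 2-fold or more lower in iWAT_DFAT than in eWAT_DFAT, where 3.95% of all genes compared were lower and 8.29% higher. The ratios ran from 30.6-fold lower for *Mrap* over 11.3-fold for *Cidec*, 9.25-fold for *Adipoq*, 7.33-fold for *Car3* and 6.39-fold for *Cfd* to 2.90-fold for *Retn*. *Pnpla2* was 1.78-fold and *Lipe* 1.44-fold lower, and the *Lipe* ratio turned direction without the 1% of cells with most UMIs of the 9 genes, to a log2 ratio of 0.19 from -0.52. In the SVF libraries *Mrap* and *Pnpla2* reached 5 CPM and *Mrap* was 2-fold lower in iWAT, beside 3.94% of all genes lower and 2.94% higher. All 6 genes lower in iWAT_DFAT reached 5 CPM only in eWAT_DFAT, and *Mrap* in the SVF pair only in eWAT_SVF. For *Adipoq*, *Cidec* and *Mrap* the iWAT level was too low for any other call, so these counts describe the minimum as well. The 4 comparisons share libraries with each other, so their counts are not separate from each other. Genes of other cell types moved with the libraries too. Mesothelial genes summed to 35.1 CPM in eWAT_DFAT and 190.5 CPM in eWAT_SVF, endothelial genes to 65.0 and 97.8 CPM, and ASPC genes to 2417 and 7082 CPM. In iWAT_DFAT ASPC genes summed to 7962 CPM, with 8 of 10 at 5 CPM 2-fold or more higher than in eWAT_DFAT, endothelial genes to 23.4 CPM and mesothelial genes to 6.61 CPM. Pericyte and smooth muscle genes stood at 11.2 CPM in iWAT_DFAT and 75.6 CPM in eWAT_DFAT. Their part in these ratios was not tested.

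These counts rested on few cells. Without the 1% of cells with most UMIs of the 9 genes, eWAT_DFAT kept *Adipoq* at 3.20 CPM, *Cfd* at 2.42 CPM, *Retn* at 4.61 CPM, *Cidec* at 1.72 CPM and *Lipe* at 3.74 CPM, all under the minimum. These levels were still above those in all cells of eWAT_SVF, 0.157, 0.228, 0.440, 0.0709 and 2.43 CPM in the same order. *Car3* at 5.19 CPM and *Mrap* at 61.8 CPM were then the 2 genes counted, both against eWAT_SVF and between the depots. In iWAT_DFAT the same step left *Adipoq* at 0.0716 CPM, *Cfd* at 0.143 CPM, *Car3* at 0.160 CPM and *Cidec* at 0.105 CPM, and no gene was counted. The log2 ratio of *Adipoq* between iWAT_DFAT and iWAT_SVF was then 0.49 in place of 3.61. Taking out the cells with most UMIs lowers a level by construction.

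The share of a gene's UMIs held by the 1% of cells with most of them was read for genes with 100 or more UMIs in a library, beside the share the same number of UMIs would have if spread over cells by depth alone. In iWAT_DFAT, where 1% was 76 cells, all UMIs of *Adipoq*, *Cfd*, *Car3* and *Cidec* lay in them, since these genes were found in only 40, 41, 40 and 38 cells. Depth alone would have put 35.5%, 17.0%, 15.6% and 69.9% there. *Mrap* had 79.8% of its UMIs in 76 cells and *Retn* 76.4%, with 22.0% and 17.2% from depth alone. *Lipe* had 36.6% and *Pnpla2* 28.9%, with 14.1% and 8.37% from depth alone. Thus 6 of the 8 genes had 50% or more of their UMIs in 1% of cells, as 8.70% of all genes with 100 or more UMIs did, and the median of those genes was 9.58%. *Cidec* was 1 of the 6, though depth alone would have put 69.9% of its 110 UMIs there. The 9 genes were chosen with such shares known, so this count and that of eWAT_DFAT describe the choice.

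In eWAT_DFAT 1% was 65 cells. They held 95.8% of *Cfd* UMIs, 91.2% of *Car3*, 86.2% of *Cidec*, 83.7% of *Adipoq*, 64.5% of *Retn* and 64.4% of *Lipe*, where depth alone would give between 5.39% and 11.2%. *Pnpla2* had 37.5% there, the highest share of these genes under 50%, and *Mrap* only 13.5%, with 4.05% from depth. The count was again 6 of 8, and it was 7.96% of all genes. *Mrap* was therefore concentrated in few cells in iWAT_DFAT and widespread in eWAT_DFAT. In the SVF libraries none of the genes with 100 UMIs passed 50%, among 8.81% and 7.59% of all genes that did. There *Lipe* had 26.5% and 21.7%, *Pnpla2* 10.4% and 8.63%, and *Mrap* in eWAT_SVF 11.5%, within 5 percentage points of the share from depth in each case. *Adipoq*, *Cfd*, *Car3*, *Retn* and *Cidec* had under 100 UMIs in both SVF libraries and were not read, so the libraries cannot be compared for them. In eWAT_SVF, 43 of the 45 *Cfd* UMIs and 27 of the 31 *Adipoq* UMIs lay in 1 cell.

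Single cells carried large counts. The cell with most *Car3* held 263 of the 745 UMIs of iWAT_DFAT, and the cell with most *Cfd* 188 of 606. In eWAT_DFAT the highest counts in 1 cell were 382 UMIs of *Car3*, 286 of *Cfd*, 77 of *Retn*, 67 of *Pnpla2*, 66 of *Adipoq* and 55 of *Cidec*. Among cells with any UMI of *Retn*, *Lipe* or *Pnpla2* the median was 1 UMI of that gene in both DFAT libraries.

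**Figure D2:**
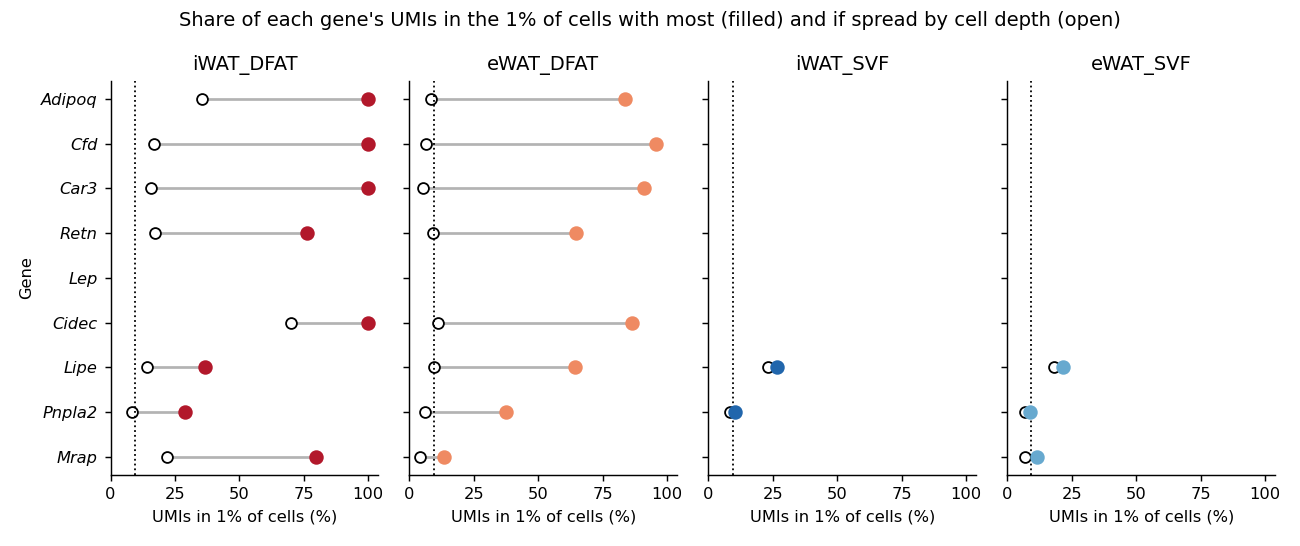
Share of each gene's UMIs (%) in the 1% of cells with most of them (filled) and the share if the same UMIs were spread by cell depth (open), in the 4 libraries, for genes with 100 or more UMIs. Dotted lines mark the median over all such genes, 9.36% to 9.59%. In the DFAT libraries 6 of 8 genes lie above 50%. In the SVF libraries only *Lipe* and *Pnpla2*, and *Mrap* in eWAT_SVF, had 100 UMIs, and their filled points lie near the open ones.

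The share of cells with at least 1 UMI gave another view of how widely each gene was found. *Mrap* was counted in 52.6% of eWAT_DFAT cells (exact 95% interval 51.4% to 53.9%) and 30.7% of eWAT_SVF cells (29.6% to 31.8%), but in 2.06% of iWAT_DFAT and 0.916% of iWAT_SVF cells. After every cell was thinned to 5000 UMIs these shares were 21.1%, 7.81%, 0.740% and 0.208%. *Pnpla2* was counted in 20.1% of iWAT_DFAT, 29.6% of eWAT_DFAT, 25.7% of iWAT_SVF and 35.1% of eWAT_SVF cells, or 5.25%, 7.79%, 5.75% and 7.87% after thinning. *Lipe* was counted in 9.87%, 6.56%, 4.58% and 6.57% of cells in the same order, or 2.65%, 2.55%, 0.929% and 1.33% after thinning, where the 2 DFAT libraries lay close to each other.

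Cells with UMIs of at least 4 of 8 endothelial genes, which as a cell type should lack adipocyte genes, served as a measure of background. They numbered 20 in iWAT_DFAT, 147 in eWAT_DFAT, 54 in iWAT_SVF and 144 in eWAT_SVF, with median depths of 17487, 11794, 15912 and 14890.0 UMIs. In eWAT_DFAT they held *Cfd* in 3.40% and *Car3* in 4.08% of cells, beside 2.40% and 4.16% of all cells. The endothelial intervals, 1.11% to 7.76% for *Cfd* and 1.51% to 8.67% for *Car3*, held the shares of all cells. *Adipoq* was in 1.36% of endothelial and 3.30% of all cells, *Cidec* in 1.36% and 2.54%, and *Retn* in 3.40% and 6.84%. Their endothelial intervals, 0.165% to 4.83% for *Adipoq* and *Cidec* and 1.11% to 7.76% for *Retn*, held the shares of all cells as well. A share of cells with 1 UMI or more thus did not stand clear of background for these 5 genes in eWAT_DFAT. Only 2 to 6 endothelial cells stood behind each share, too few for the intervals to separate such shares. Also, 3 of the endothelial cells were among those with 3 or more adipocyte genes described below. Thinned to 5000 UMIs, the endothelial share was 1.36% beside 1.81% of all cells for *Adipoq*, and 1.74% beside 1.44% for *Cfd*. It was 2.19% beside 2.02% for *Car3*, 1.21% beside 2.54% for *Retn* and 0.801% beside 1.45% for *Cidec*. In iWAT_DFAT, *Adipoq*, *Cfd* and *Car3* were found in the same 1 of the 20 endothelial cells, a share of 5.00% (0.127% to 24.9%), and the interval held the 0.524% to 0.537% of all cells. In the SVF libraries no endothelial cell held a UMI of *Adipoq*, *Cfd*, *Car3*, *Retn* or *Cidec*, which allows a share of up to 5.56% in iWAT_SVF and 2.08% in eWAT_SVF.

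For *Mrap* the endothelial share was 10.9% in eWAT_DFAT and 5.56% in eWAT_SVF, below the 52.6% and 30.7% of all cells. *Lipe* was in 5.00%, 10.9%, 3.70% and 6.94% of endothelial cells in the order iWAT_DFAT, eWAT_DFAT, iWAT_SVF and eWAT_SVF, beside 9.87%, 6.56%, 4.58% and 6.57% of all cells, so it was not more often counted in all cells than in endothelial ones in the eWAT libraries. *Pnpla2* was in 25.0%, 47.6%, 57.4% and 56.9% of endothelial cells in the same order, above its share in all cells in each library. Adipose triglyceride lipase is known to be made by many cell types, so endothelial cells need not lack it.

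The genes were counted in the same cells. In eWAT_DFAT, 6251 cells had no *Adipoq* UMI, 93 had 1, 52 had 2 to 9 and 68 had 10 or more. The share with *Cfd* was 1.04%, 6.45%, 36.5% and 95.6% over these classes, and that with *Cidec* 1.17%, 7.53%, 36.5% and 95.6%. *Car3* was found in 2.86%, 18.3%, 48.1% and 70.6%, so that 20 of the 68 cells with most adiponectin RNA had no UMI of it. *Retn* went from 5.31% to 91.2% and *Lipe* from 5.01% to 98.5%, while *Pnpla2* and *Mrap*, at 28.2% and 51.6% in cells without *Adipoq*, were found in all 68 cells and in 94.1%. The median depth of the 68 cells was 15582 UMIs, beside 27560.0 UMIs for cells without *Adipoq*, so the cells with most of it were the shallower ones. *Lep* had no UMI in any of the 68 cells, which allows a share of up to 4.41%.

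In iWAT_DFAT only 7 cells had 10 or more *Adipoq* UMIs. All 7 held *Cfd*, *Lipe* and *Pnpla2*, 6 held *Car3* and *Retn*, 5 held *Cidec* and 3 held *Mrap*. Among the 7589 cells without *Adipoq*, 0.356% held *Cfd*, 0.422% *Car3* and 0.329% *Cidec*. *Mrap* in 3 of 7 such cells (42.9%) stood beside 64 of 68 in eWAT_DFAT (94.1%), where cells without *Adipoq* also held *Mrap* more often, 51.6% beside 1.94% in iWAT_DFAT.

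**Figure D3:**
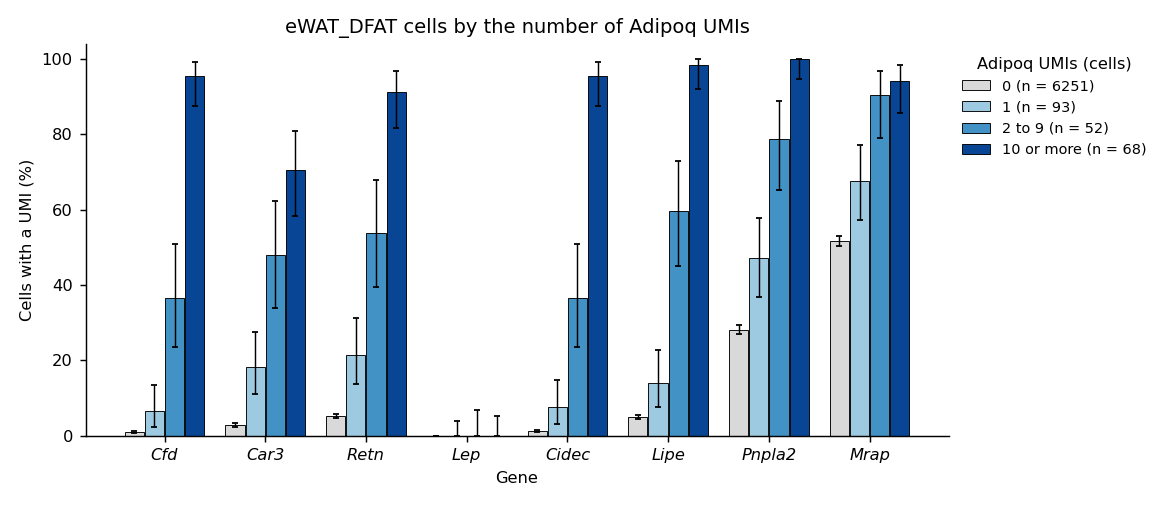
Share of eWAT_DFAT cells (%) with at least 1 UMI of each other gene, in cells with 0, 1, 2 to 9 and 10 or more *Adipoq* UMIs, with exact 95% binomial intervals. *Cfd* and *Cidec* go from about 1% of cells without *Adipoq* to 95.6% of those with 10 or more, *Mrap* starts at 51.6%, and *Lep* is at 0 in every class.

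To describe the cells that carried the adipocyte genes, cells with UMIs of at least 3 of 7 genes (*Lipe* and *Pnpla2* left out) were taken. They numbered 26 in iWAT_DFAT (0.341% of cells, exact binomial interval 0.223% to 0.499%), 203 in eWAT_DFAT (3.14%, 2.73% to 3.60%), 1 in iWAT_SVF and 2 in eWAT_SVF. In eWAT_DFAT, where *Mrap* was widespread, 194 of the 203 held it. Cells with 6 of the 7 genes numbered 3 in iWAT_DFAT and 48 in eWAT_DFAT, and none held all 7, since *Lep* was absent. The 26 cells held 95% of *Cfd*, 94.1% of *Car3* and 88.0% of *Adipoq* UMIs of iWAT_DFAT cells, and the 203 cells 98.0%, 94.6% and 95.2% of those of eWAT_DFAT. Of *Pnpla2* UMIs they held 19.3% and 47.6%, and of *Mrap* 22.2% and 17.7%.

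Their depth was near that of the other cells, with a median of 21317 UMIs beside 22111 in iWAT_DFAT and of 24594 beside 27509 in eWAT_DFAT. Their mt- share was higher, with a median of 5.92% beside 3.12% and of 3.88% beside 1.93%. Scrublet, a caller of doublets, placed 2 of the 26 and 8 of the 203 among the cells with the highest scores, 7.69% and 3.94%, beside 6.11% and 5.17% of all cells of these libraries. The part of RNA quality and of doublets in these counts was not tested.

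Other adipocyte genes, none of which chose the cells, were higher in them. The lists overlap in some genes. Of 22 mature adipocyte genes listed apart from the 9, 14 had at least 20 UMIs in these cells of iWAT_DFAT and 21 in those of eWAT_DFAT, and all of these were 2-fold or more higher, where 13.9% and 10.8% of all genes with 20 UMIs in them were. A gene low in the other cells reached 20 UMIs only by being high in these, so it had to come out higher, and counts of higher genes in these cells describe the filter as well. The summed level of the list was 43889.7 CPM beside 910.1 CPM in the other iWAT_DFAT cells and 35622 CPM beside 1910.2 CPM in eWAT_DFAT. *Fabp4*, the fatty acid binding protein of adipocytes, made up most of it, at 32778 CPM beside 216 CPM and 28156 CPM beside 1333 CPM. *Plin1*, which coats the adipocyte droplet and holds back lipolysis, had 685 CPM beside 11.6 CPM and 436 CPM beside 14.7 CPM. *Scd1*, a fatty acid desaturase, had 4501 CPM beside 82.4 CPM and 2575 CPM beside 63.1 CPM. *Cd36*, a fatty acid transporter, had 705 CPM beside 7.53 CPM and 786 CPM beside 52.4 CPM. *Slc2a4*, the insulin-responsive glucose transporter, had no UMI in the 26 cells, beside 0.104 CPM in the others, and 5.43 CPM beside 0.200 CPM in eWAT_DFAT, from 30 UMIs.

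The partners of the lipases in lipolysis were found in the same cells. *G0s2*, an inhibitor of adipose triglyceride lipase, had 1563 CPM beside 7.58 CPM in iWAT_DFAT and 743 CPM beside 18.6 CPM in eWAT_DFAT. *Mgll*, the lipase that ends the breakdown, had 377 CPM beside 5.74 CPM and 113 CPM beside 7.01 CPM. *Adrb3*, the adrenergic receptor that starts lipolysis in adipocytes, had 80.0 CPM beside 0.0710 CPM and 57.0 CPM beside 0.239 CPM. *Abhd5*, the activator of the first lipase, differed least of these, at 248 CPM beside 32.1 CPM and 127 CPM beside 25.8 CPM. In all, 7 of the 7 lipolysis partners with 20 UMIs in these cells were 2-fold or more higher in iWAT_DFAT and 9 of 10 in eWAT_DFAT, beside the same 13.9% and 10.8% of all genes, and *Mgll*, *G0s2* and *Adrb3* are among those that the filter let through only as higher genes in iWAT_DFAT.

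Of the adipogenic transcription factors with 20 UMIs in these cells, 4 of 10 in iWAT_DFAT and 6 of 11 in eWAT_DFAT were 2-fold or more higher, beside 13.9% and 10.8% of all genes so filtered, and of the 11 at 5 CPM in the other cells 2 in each library were lower, where 18.9% and 6.0% of all genes at 5 CPM were. *Pparg* had 459 CPM beside 43.4 CPM in iWAT_DFAT and 377 CPM beside 61.7 CPM in eWAT_DFAT, and *Cebpa* 162 CPM beside 13.2 CPM and 70.4 CPM beside 8.36 CPM. *Cebpd*, which acts early in adipogenesis, was lower, at 65.6 CPM beside 316 CPM and 40.9 CPM beside 97.2 CPM. Of the droplet coat genes *Plin2*, found in many cell types, had 813 CPM beside 231 CPM and 699.9 CPM beside 303 CPM.

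ASPC genes were lower in these cells, though UMIs of them were counted. Their summed level was 2753 CPM beside 7979 CPM in iWAT_DFAT and 1069 CPM beside 2458 CPM in eWAT_DFAT, with 8 and 6 of the 10 genes at 5 CPM 2-fold or more lower, beside the same 18.9% and 6.0% of all genes. *Pdgfra*, the receptor that marks ASPCs, had 91.2 CPM beside 246 CPM and 51.6 CPM beside 96.5 CPM, and *Col1a1*, a collagen chain, 432 CPM beside 1550.3 CPM and 262 CPM beside 706 CPM. *Pdgfra* was counted in 65.4% of the 26 cells, beside 93.8% of the others, and in 49.8% of the 203, beside 79.8%. The background of ASPC RNA in droplets was not measured, so these shares do not show that the cells made it. Endothelial genes summed to 92.8 CPM beside 23.1 CPM in iWAT_DFAT and to 43.1 CPM beside 65.6 CPM in eWAT_DFAT. In these sums 1 of the 26 cells held 51 of 58 endothelial UMIs and 3 of the 203 held 143 of 238. Without these cells, which had UMIs of at least 4 endothelial genes, the sums were 11.3 CPM and 17.5 CPM. Pericyte and smooth muscle genes summed to 43.2 CPM beside 11.1 CPM in iWAT_DFAT, where none had 20 UMIs in the 26 cells, and to 48.5 CPM beside 76.4 CPM in eWAT_DFAT. Yet of the 4 genes of this list with 20 UMIs in the 203 cells, 3 were 2-fold or more higher, beside 10.8% of all genes. Of the 3 at 5 CPM in the other eWAT_DFAT cells, 1 was 2-fold or more lower, beside 6.0% of all genes. Macrophage genes summed to 9.60 CPM beside 20.8 CPM and 18.1 CPM beside 18.7 CPM. Of 10 mesothelial genes only *Krt19* had UMIs in the 26 cells, 19 of them, which gave a sum of 30.4 CPM beside 6.53 CPM, and the sum was 26.4 CPM beside 35.4 CPM in eWAT_DFAT. Brown adipocyte genes summed to 30.4 CPM beside 6.45 CPM and 56.8 CPM beside 3.60 CPM, of which *Ppargc1a* and *Cox7a1*, which both act in mitochondrial function, gave most. *Ucp1*, which defines brown adipocytes, had no UMI in the 26 cells and 3 UMIs in the 203, at 0.543 CPM beside 0.0389 CPM. *Cox8b*, also of this list, had no UMI in the 26 cells and 37 UMIs in the 203, at 6.69 CPM beside 0.0167 CPM. In eWAT_DFAT 3 of the 3 brown adipocyte genes with 20 UMIs were 2-fold or more higher, beside 10.8% of all genes. The filter fixed this count, since these genes were low in the other cells. In iWAT_DFAT none had 20 UMIs.

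**Figure D4:**
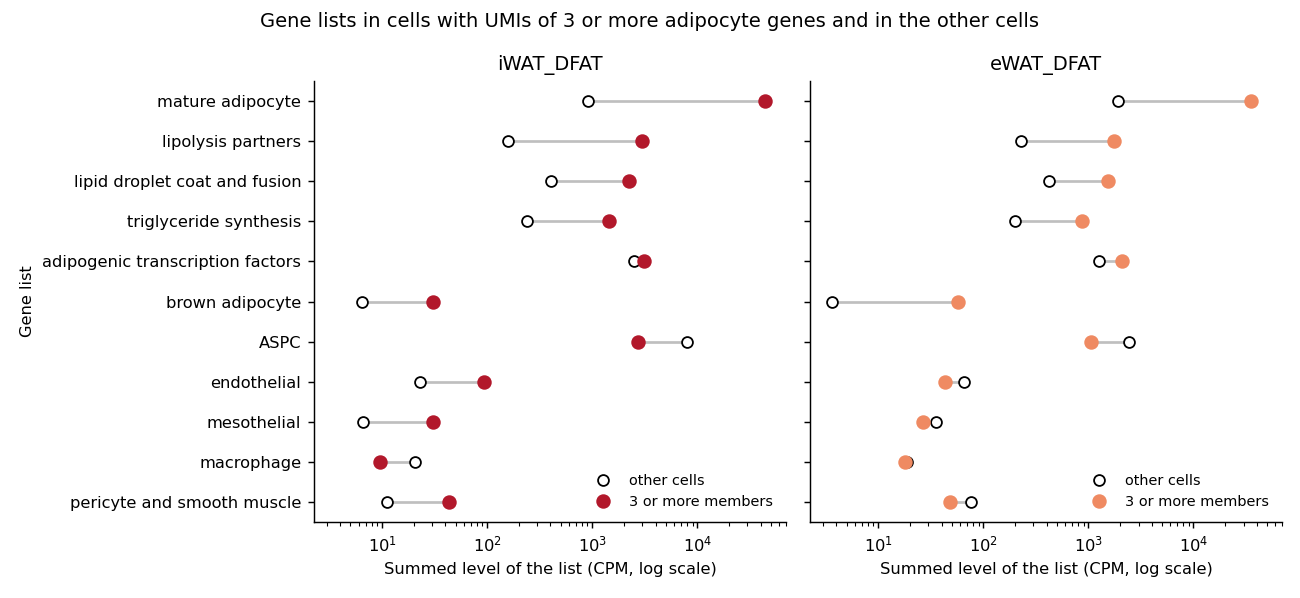
Summed level (CPM, log axis) of 11 gene lists in cells with UMIs of 3 or more of the 7 adipocyte genes (filled) and in the other cells (open) of iWAT_DFAT (26 cells) and eWAT_DFAT (203 cells). The mature adipocyte list, which holds none of the 9 genes, lies furthest to the right in the filled points at 43889.7 and 35622 CPM, and the ASPC list is lower in the filled points than in the open ones.

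The genes most like the 9 were named as the 5 with the largest ratio between these cells and the others, among genes with 20 or more UMIs in them. In iWAT_DFAT they were *Ighm*, *Adrb3*, *Lgals12*, *Ankef1* and *Adig*. *Ighm*, the heavy chain of immunoglobulin M, rested on 1 cell, which held 28 of its 31 UMIs. In eWAT_DFAT they were *Apoc4*, *Pck1*, *Lgals12*, *Thrsp* and *Adig*, and all 24 UMIs of *Pck1* lay in 1 cell. *Lgals12*, a galectin of adipocytes, and *Adig*, adipogenin, were named in both libraries. *Lgals12* was found in 14 of 26 and 80 of 203 cells, with log2 ratios of 9.06 and 9.90, and *Adig* had log2 ratios of 8.90 and 8.71. In the SVF libraries the genes so named rested on 1 and 2 cells and were *Hp*, *Fabp4*, *Cdo1*, *G0s2* and *Scd1* in iWAT_SVF and *Wfdc21*, *Plin1*, *Cd36*, *Fabp4* and *Acsl1* in eWAT_SVF.

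Free RNA held the genes that reached 5 CPM at levels near those of cells. Among genes at 5 CPM in either, none of the 9 was 2-fold or more higher in free RNA than in cells in any library, where 0.734%, 0.955%, 1.34% and 0.864% of all genes were in the order iWAT_DFAT, eWAT_DFAT, iWAT_SVF and eWAT_SVF. None was 2-fold lower, beside 0.108%, 0.0398%, 0.0296% and 0.141% of all genes. The genes read were *Cfd*, *Lipe* and *Pnpla2* in iWAT_DFAT and all but *Lep* in eWAT_DFAT. In iWAT_SVF only *Pnpla2* was read, and in eWAT_SVF only *Pnpla2* and *Mrap*. With so few genes read, finding none says little beside these shares. *Cfd* came nearest to being 2-fold higher, at 5.93 CPM in the free RNA of iWAT_DFAT and 35.4 CPM in that of eWAT_DFAT, log2 ratios over cells of 0.85 (0.37 to 1.29) and 0.75 (0.56 to 0.93). In barcodes with 1 to 20 UMIs alone it was at 6.71 CPM and 59.4 CPM, more than 2-fold its level in cells. *Car3* in eWAT_DFAT had 36.0 CPM in free RNA, a log2 ratio of 0.28 (0.10 to 0.46). *Mrap* was lower in free RNA than in cells, with log2 ratios of -0.21 (-0.36 to -0.07) in eWAT_DFAT and -0.55 (-0.88 to -0.24) in eWAT_SVF. The interval of the ratio held 0 for *Adipoq*, *Retn*, *Cidec*, *Lipe* and *Pnpla2* in both DFAT libraries. In the SVF libraries *Adipoq* and *Cidec* had no UMI in free RNA, and *Retn* in iWAT_SVF had 5, at 0.70 CPM beside 0.135 CPM in cells, a log2 ratio of 2.37 (0.64 to 3.77).

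Barcodes outside the limits on cells held part of the adipocyte RNA. Cells had 69.9% of the summed UMIs of the 9 genes in iWAT_DFAT and 82.9% in eWAT_DFAT. The share in cells was lowest for *Cfd*, 37.5% in iWAT_DFAT and 75.0% in eWAT_DFAT, and was 49.6% and 85.8% for *Adipoq*. The other 6 genes with UMIs in cells ranged from 68.3% for *Cidec* to 85.5% for *Lipe* in iWAT_DFAT. The barcodes just outside the mt- limit, with 5000 or more UMIs and 10% or more from mt- genes, numbered 26 in iWAT_DFAT and 35 in eWAT_DFAT. *Cfd* stood at 1489 CPM and 1725 CPM in them, from 522 UMIs in 4 barcodes and 562 UMIs in 9. *Adipoq* stood at 485 CPM and 598 CPM, from 5 and 10 barcodes. *Car3* had 45.7 CPM in iWAT_DFAT and 2575 CPM in eWAT_DFAT. With the limit at 20% of mt- UMIs, *Cfd* in iWAT_DFAT was at 6.13 CPM beside 3.30 CPM, and *Adipoq* at 2.15 CPM beside 1.23 CPM.

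Barcodes with over 500 and under 5000 UMIs, whose median mt- share was 84.0% in iWAT_DFAT and 66.3% in eWAT_DFAT, also held adipsin RNA. *Cfd* was at 191 CPM in iWAT_DFAT, where 313 of 323 UMIs lay in 1 barcode, and at 151 CPM in eWAT_DFAT, where 331 UMIs lay in 16 barcodes and 146 of them in 1. *Adipoq* was at 7.69 CPM and 7.75 CPM there. *Mrap* had no UMI in this class in iWAT_DFAT and 25.5 CPM in eWAT_DFAT, below its 66.6 CPM in cells. What these barcodes hold was not tested.

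**Figure D5:**
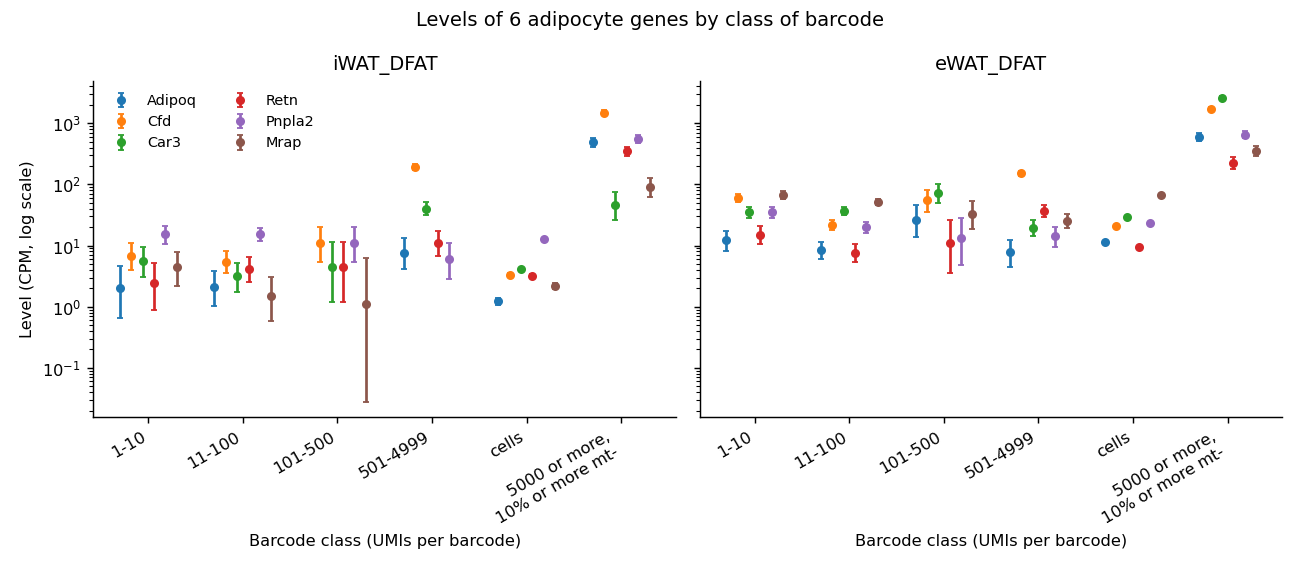
Levels (CPM, log axis, exact 95% Poisson intervals) of 6 genes in barcodes of iWAT_DFAT and eWAT_DFAT by number of UMIs, in cells, and in barcodes with 5000 or more UMIs and 10% or more from mt- genes. Classes in which a gene had no UMI are not drawn. All 6 genes are highest in the last class, where *Cfd* reaches 1489 CPM and 1725 CPM.

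Genes of the same pathways were compared between whole libraries, and the values below are log2 ratios of DFAT over SVF, the first for iWAT and the other for eWAT. Of 12 mature adipocyte genes at 5 CPM, 9 in iWAT and 8 in eWAT were 2-fold or more higher in DFAT than in SVF cells and none lower, with medians of the log2 ratio of 1.72 and 1.41 beside 0.09 and 0.07 over all genes. For this and the lists that follow, the shares over all genes were 9.91% higher and 5.18% lower in iWAT and 6.44% and 6.67% in eWAT. As with the 9 genes, a gene that reaches 5 CPM only through a high DFAT library had to come out higher. This held for *Plin1* and *Plin4* in both depots and for *Cd36* and *Dgat2* in iWAT. In eWAT *Cd36* and *Dgat2* also reached 5 CPM only in DFAT cells. These counts therefore describe the minimum as well, and the same can hold in the lists that follow. *Plin1* was at 13.9 CPM in iWAT_DFAT, 27.3 CPM in eWAT_DFAT, 0.286 CPM in iWAT_SVF and 0.764 CPM in eWAT_SVF, log2 ratios of 5.60 and 5.16. *Fabp4* had ratios of 2.01 and 2.68 and *Cd36* of 3.51 and 4.81. *Pparg*, which directs adipogenesis, had 1.33 and 3.12 and *Cebpa* 1.15 and 0.62. *Lpl*, which frees fatty acids from lipoproteins, had 1.83 and 0.46, *Acsl1*, which activates fatty acids, 1.6 and 0.90, *Dgat2*, which makes triglyceride, 2.5 and 1.14, and *Scd1* 0.98 and 1.58. *Tmem120b*, a nuclear envelope protein, had 0.39 and -0.57.

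Of the lipid droplet list, 3 of 8 genes at 5 CPM were 2-fold higher in both depots and none lower, namely *Plin1*, *Plin2* (1.24 and 2.12) and *Plin4* (3.37 and 4.15). *Plin1* and *Plin4* reached 5 CPM only in DFAT cells. *Hilpda*, which restrains lipolysis under low oxygen, had 0.91 and 0.86, *Fitm2*, a droplet formation protein, 0.57 and 0.58, *Bscl2*, or seipin, 0.43 and -0.30, *Plin3* 0.12 and -0.61, and *Hsd17b11* -0.16 and -0.44. Of the lipolysis partners at 5 CPM, 1 of 6 in iWAT and 2 of 6 in eWAT were 2-fold higher, and 2 and 1 were lower, beside 9.91% and 6.44% of all genes higher and 5.18% and 6.67% lower. *Prkar2b*, a regulatory subunit of protein kinase A, was higher in both, with 1.06 and 1.78. *Pde3b*, which degrades the cyclic AMP that drives lipolysis, had -0.84 and 1.24. *Mgll* was lower at -1.08 in both depots and *G0s2* had -1.02 and -0.92, in contrast to their high levels in the cells with 3 or more adipocyte genes. *Abhd5* (0.22 and 0.15) and *Prkaca*, the catalytic subunit of protein kinase A (0.08 and 0.15), lay near the median of all genes.

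Of 12 adipogenic transcription factors at 5 CPM, 6 were 2-fold higher and 1 lower in DFAT cells of iWAT, and 2 higher and 3 lower in eWAT. The log2 ratios in iWAT and eWAT were 2.01 and 0.38 for *Cebpb*, 1.13 and -1.31 for *Cebpd*, 0.01 and -1.27 for *Klf4*, -1.44 and -1.26 for *Klf5*, 0.64 and 0.10 for *Ebf1*, 0.44 and 0.58 for *Ebf2*, 0.68 and -0.36 for *Rxra*, 0.48 and -0.22 for *Srebf1*, 2.40 and 1.22 for *Zfp423* and 1.16 and -0.89 for *Zfp467*. Among receptors of the secreted proteins and the complement factors that adipsin acts with, *Cfb*, the substrate of adipsin, was higher at 4.88 and 1.72. Of the 5 genes of this list at 5 CPM, 2 in iWAT and 1 in eWAT were 2-fold higher, and 1 in iWAT lower. *C3*, from which the alternative pathway starts, had 4.95 in iWAT and -0.08 in eWAT. The adiponectin receptors *Adipor1* (-0.37 and -0.18) and *Adipor2* (0.42 and -0.04) lay near the median, and *Cdh13*, which binds adiponectin, had -1.27 and -0.74.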

How the data were processed

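Each of 4 cultures gave 1 droplet library (10x 3′ kit). The deposited files hold counts of UMIs per gene and barcode, made by the authors with Cell Ranger against mm10, with introns included per the methods, before the CellBender, cell filter, DoubletFinder and Harmony steps of the study, none of which was run here. The file headers name version 7.1.0 for iWAT_DFAT, eWAT_DFAT and eWAT_SVF and version 4 for iWAT_SVF, while the methods name 7.0.0. Genes spanning 100 kb or more had a median log2 ratio of 0.31 between iWAT_DFAT and iWAT_SVF and of 0.14 between eWAT_DFAT and eWAT_SVF, beside -0.07 and -0.02 for genes under 10 kb, of 0.29 beside -0.04 between iWAT_DFAT and eWAT_DFAT, and of 0.12 beside -0.01 between iWAT_SVF and eWAT_SVF, so long genes were not lower in iWAT_SVF than in eWAT_SVF.

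Counts were summed over cells and scaled to 1000000 UMIs (CPM), not to gene length. Where levels of different genes are set side by side, they are shares of UMIs. Intervals at 95% were exact Poisson for levels, Clopper-Pearson for shares of cells and conditional binomial for ratios. On simulated counts the ratio intervals held the true value for 94.6% to 95.3% of genes, and the share from depth alone was also tested so. The Poisson and Clopper-Pearson intervals were not tested on simulated data. Thinned shares are those expected at 5000 UMIs per cell. No doublets were removed, and 1 alternative removed the highest Scrublet scores at 0.8% per 1000 cells. Other alternatives changed the limits on cells, UMIs, CPM and free RNA, the weight of cells, and the cells left in. The members and lists were chosen with earlier results of these data known. Named are the 9 genes, genes at 5 CPM or more in 5 of the 18 lists, and the 5 genes per library most like the 9. *Mc2r*, *Slc2a4*, *Ucp1*, *Cox8b*, *Pdgfra*, *Col1a1*, *Krt19*, *Ppargc1a* and *Cox7a1* were picked after their values were seen. With 1 library per group no test between groups was made. Tools were scanpy 1.11.5, pandas 2.3.3, scipy 1.17.1, numpy 2.4.6 and matplotlib 3.10.9 under Python 3.11.15.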

Additional observations from a re-analysis of the deposited data

How the results depend on the processing

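With 1 library per group, no value here has a spread between cultures, and the 3′ counts limit each value by depth as given with its interval. No paired analysis was possible because every group was 1 library without a replicate number. Of 224 log2 ratios of single genes recomputed under alternatives (32 ratios), 179 stayed within the counting interval and 42 moved beyond it. The other 3 changed sign, which was counted only where the main interval excluded equal levels. Sign changes of other ratios were not counted apart and fall within the 179 and 42. All 3 changed sign without the 1% of cells with most UMIs of the 9 genes: *Pnpla2* of DFAT over SVF to -0.19 in iWAT (from 0.11) and -0.03 in eWAT (from 0.52), and *Lipe* of iWAT_DFAT over eWAT_DFAT to 0.19 (from -0.52).

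The summed level of the 9 genes, 33.6 CPM in iWAT_DFAT and 177 CPM in eWAT_DFAT, was 34.7 and 173 CPM with no maximum of genes, 39.9 and 189 CPM under 20% of mt- UMIs, 34.8 and 180.1 CPM without the highest Scrublet scores, 35.2 and 237 CPM with each cell weighing the same, 34.8 and 180.5 CPM when scaled without mt- genes, and 16.5 and 98.0 CPM without the 1% of cells with most, which lowers it by construction. In iWAT_SVF the last step gave 13.3 CPM, and in eWAT_SVF 34.2 CPM, where equal weight of cells gave 38 CPM.

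Of genes 2-fold or more different, iWAT_DFAT over iWAT_SVF had 1, and 2 under 20% of mt- UMIs, where *Cfd* joined *Lipe*, 0 without the 1% of cells with most and 7 with no minimum CPM. Without those cells, eWAT_DFAT over eWAT_SVF had 2 in place of 7 and iWAT_DFAT over eWAT_DFAT 2 in place of 6. With no minimum CPM, iWAT_SVF over eWAT_SVF had 5 in place of 1. In barcodes of 1 to 20 UMIs, 1 gene, *Cfd*, was 2-fold higher than in cells in each DFAT library, and with the main range 0.

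The share of the summed UMIs in the 1% of cells with most was 51.4% in iWAT_DFAT, and 58.7% under 20% of mt- UMIs, 53.1% without the highest Scrublet scores, and 47.2% and 56.2% in 0.5% and 2% of cells. In eWAT_DFAT it was 45.0%, and 46.0% with a minimum of 500 UMIs, 44.0% with no maximum of genes, 45.6% under 20% of mt- UMIs, and 30.8% and 55.8% in 0.5% and 2% of cells. In 0.5% and 2% of cells it was 6.66% and 17.0% in iWAT_SVF (10.5% in 1%) and 6.01% and 13.6% in eWAT_SVF (8.75% in 1%).

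Cells with any UMI of the 9 genes were 30.3%, 68.1%, 29.9% and 57.6% in the order iWAT_DFAT, eWAT_DFAT, iWAT_SVF and eWAT_SVF. With 2 UMIs or more they were 8.32%, 44.3%, 6.71% and 26.8%, and after thinning to 5000 UMIs 8.73%, 28.6%, 6.89% and 16.4%. A minimum of 500 UMIs gave 64.2% in eWAT_DFAT, 28.4% in iWAT_SVF and 53.4% in eWAT_SVF.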

Other observations

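Among secreted adipocyte proteins other than the 9 genes, 5 of 8 at 5 CPM were 2-fold or more higher in DFAT than in SVF cells of iWAT and 1 lower, and 4 of 10 higher and 2 lower in eWAT. Of all genes, 9.91% were higher and 5.18% lower in iWAT and 6.44% and 6.67% in eWAT. *Rbp4* and *Apln* in iWAT and *Rbp4* and *Agt* in eWAT reached 5 CPM only in DFAT cells. These counts therefore describe the minimum as well. *Rarres2*, which encodes chemerin, stood at 929 CPM in iWAT_DFAT, 198 CPM in eWAT_DFAT, 5.51 CPM in iWAT_SVF and 13.6 CPM in eWAT_SVF. *Rbp4*, a retinol carrier, stood at 16.4, 27.8, 1.14 and 4.54 CPM in the same order. Triglyceride synthesis genes were 2-fold higher for 2 of 10 in iWAT, and for 1 of 10 in eWAT with 1 lower, near the shares of all genes in eWAT. Genes of fatty acid and glucose uptake and insulin response had 4 of 11 higher and 3 lower in iWAT and 2 higher and 2 lower in eWAT. *Fabp4*, higher in both depots, was at 327, 2132, 81.0 and 334 CPM. *Fabp5*, lower in both, was at 254, 461, 1022 and 1173 CPM.

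Of the 15 other carbonic anhydrases, *Car13* and *Car8* reached 5 CPM in iWAT, with log2 ratios of DFAT over SVF of 1.45 and -1.0, and *Car13* alone in eWAT, with 1.17. No gene of the melanocortin and ACTH receptor list reached 5 CPM in any library, although *Mrap* stood at 66.6 CPM in eWAT_DFAT. These genes were named after their values were seen.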
